A study of Mus musculus with 36 samples.

Results

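The 9 genes described here encode secreted or membrane-bound enzymes that cut the extracellular matrix, together with the urokinase system that activates plasminogen. They are Mmp3, Mmp9, Mmp13, Mmp14, Plau, Plaur, Adamts1, Adamts4 and Adamts9. They were chosen by name from these families, with earlier results of these data known. Counts of them are therefore set beside the shares of all genes only as a description. All 9 were listed in both expression tables, among 15385 genes in microglia and 14551 genes in astrocytes. A filter on low values kept 8 of them, without Adamts9, among 10524 tested microglial genes, and all 9 among 13842 tested astrocyte genes.

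RNA from primary glial cultures of C57BL/6 mice was sequenced to ask which transcriptional responses to TNF depend on the kinase activity of RIPK1. Brains of 2- to 4-day-old pups were pooled and grown as mixed glia for 12 days. Microglia were then selected with CD11b, and astrocytes were taken from the remaining fraction with a positive selection kit for APC. Neither culture carried a transgene or a deletion. Microglia received the vehicle DMSO, the RIPK1 kinase inhibitor Nec-1s, or 1 of 2 stimuli that contain TNF. T/5z joins TNF to 5z-7, which inhibits the kinase TAK1, and T/S/Z joins it to a Smac mimetic and zVAD, an inhibitor of caspases. Both were also given together with Nec-1s, written T/5z/N or, for the second stimulus, T/S/Z/N. Each of the resulting 6 groups held 4 libraries. Astrocytes were given DMSO, Nec-1s, T/S/Z, and T/S/Z together with Nec-1s, with 3 libraries in each of 4 groups. All treatments lasted 4 hours. The labels spell the vehicle of the astrocyte libraries DSMO, which was read as DMSO.

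Values are log2(FPKM + 1), where FPKM is fragments per kilobase of exon, relative to the fragments of the library. The authors scaled each library to a common 75th percentile. A gene was called changed when its adjusted p was under 0.05 and its fold change was over 1.5, in limma with the replicate number as a block and Benjamini-Hochberg adjustment over all tested genes of the table. Fold changes of genes with a low FPKM are understated on this scale. The labels name a different sequencing provider for each cell type, whereas the study's methods name 1 platform for both. The tables were normalized apart, and no test was made across them.

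Matrix metalloproteinases are zinc enzymes, made as inactive precursors, that cut collagens, proteoglycans and other matrix proteins as well as cell surface proteins and cytokines. Urokinase, the product of Plau, binds the receptor encoded by Plaur and turns plasminogen into plasmin, which in turn can activate several metalloproteinase precursors. ADAMTS proteases cut the proteoglycans of the brain matrix such as brevican and versican. In the inflamed brain these enzymes are known for opening the blood-brain barrier and for remodelling the matrix around neurons and glia.

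RefSeq promoter windows of 300 bases, from 250 before the start of transcription to 50 after it, were given for 6 of the 9 genes on GRCm38.p6, namely Mmp3, Mmp13, Mmp14, Plaur, Adamts1 and Adamts9. The AP-1 motif TGANTCA, searched on both strands, occurred in 3 of these 6 windows, in Mmp3, Mmp13 and Plaur. It occurred in 7.81% of all 32851 promoter windows. The NF-kB motif occurred in 0 of the 6 and in 4.51% of all windows. The 120 bases before the start are shown for the 3 promoters with an AP-1 match, to show where the match lies, with its letters in capitals. The stretches lie on the plus strand at chr9:7272394-7272513 for Mmp13, chr9:7445702-7445821 for Mmp3 and chr7:24462363-24462482 for Plaur.
Mmp13: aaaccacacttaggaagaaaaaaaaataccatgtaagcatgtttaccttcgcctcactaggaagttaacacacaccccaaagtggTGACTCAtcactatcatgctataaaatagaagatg
Mmp3: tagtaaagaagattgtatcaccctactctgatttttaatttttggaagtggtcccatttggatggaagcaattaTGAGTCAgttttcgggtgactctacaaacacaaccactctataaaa
Plaur: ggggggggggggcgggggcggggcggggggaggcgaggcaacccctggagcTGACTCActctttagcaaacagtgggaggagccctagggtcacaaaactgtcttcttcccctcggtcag

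The match begins 35 bases before the start in Mmp13, 46 bases before it in Mmp3 and 69 bases before it in Plaur. These letters are a description of the windows and not evidence of binding. In microglia Nec-1s lowered these 3 genes under both stimuli, and also Adamts1, whose window held no match, and Plau, which had no window. In astrocytes Nec-1s lowered Plaur, while the differences of Mmp3 (-0.27) and Mmp13 (0.38) were not called. Adamts1 (-0.70) and Adamts9 (-1.04), whose windows held no match, fell there. A link between the motif and the response was not tested.

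Before the results, the purity and depth of the libraries were examined. Summed over 10 microglial markers, the microglial libraries held 5997 to 7356 FPKM, and summed over 9 astrocyte markers, the astrocyte libraries held 2924 to 3404 FPKM. Each table also held markers of the other cell type. Those of microglia summed to 49.47 to 88.95 FPKM in the astrocyte libraries. Those of astrocytes summed to 4.875 to 22.21 FPKM in the microglial libraries. These sums moved with treatment and are given beside the genes they touch. Total counts were not given in the tables. From the steps between the lowest values, depth was estimated at 21.3 to 22.4 M counted units in astrocytes and at 18.4 to 25.4 M in replicate 4 of microglia. Depth could not be estimated in the other microglial libraries.

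In unstimulated microglia Mmp14 stood far above the other genes. The mean levels, turned back to FPKM, were 56.1 for Mmp14, 10.4 for Plau, 10.12 for Plaur, 4.06 for Mmp13, 3.26 for Mmp3, 1.54 for Adamts1, 0.504 for Mmp9 and 0.342 for Adamts4. Replicate ranges of Plau and Plaur overlapped, as did those of Mmp3 and Mmp13 and those of Mmp9 and Adamts4. In unstimulated astrocytes the order was Mmp14 at 80.9, Adamts1 at 18.2, Plaur at 17.1, Mmp3 at 6.81, Plau at 4.25, Adamts9 at 3.31, Adamts4 at 2.21, Mmp13 at 1.63 and Mmp9 at 0.528 FPKM. There Adamts1 and Plaur overlapped between replicates. Other neighbours in both orders did not.

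**Figure D1:**
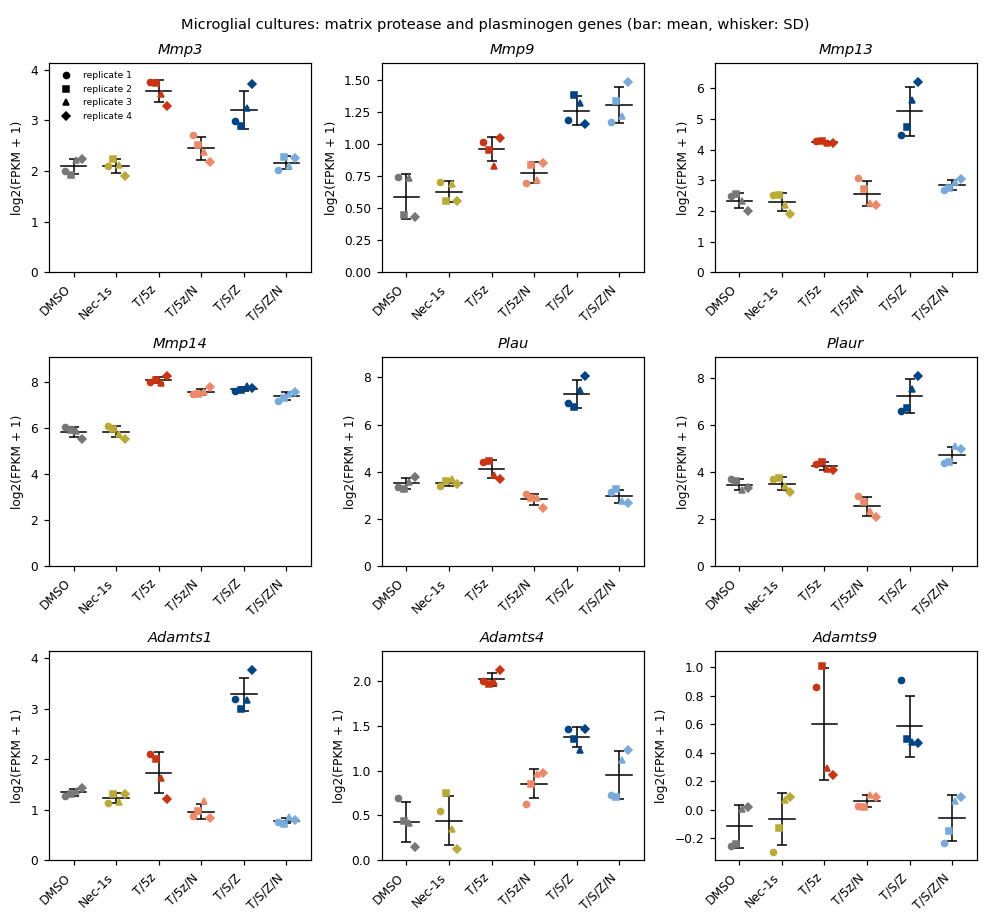
Levels of the 9 genes in the 24 microglial libraries. The y axis is log2(FPKM + 1), with a separate scale in each panel that starts at 0 or below, each point is 1 library (its symbol gives the replicate), the bar is the mean and the whisker the SD of 4 libraries. Plau, Plaur, Mmp13 and Adamts1 are highest after T/S/Z, Mmp14 and Adamts4 after T/5z, and Adamts9 lies near 0 in DMSO.

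In microglia, both stimuli raised most of these genes and Nec-1s lowered most of them again. With T/S/Z all 8 tested genes rose, where 12.2% of all tested genes were called higher and 29.6% were called in either direction. With T/5z 6 of 8 rose, namely Mmp3, Mmp13, Mmp14, Plau, Plaur and Adamts4, where 11.1% of all tested genes were called higher and 24.4% in either direction. Mmp9 and Adamts4 lay under 1 in all DMSO libraries and passed the filter on low values only through stimulated groups, so their part in these counts is partly fixed by the filter. Of the other 6 genes, a choice made after the values were seen, 6 rose with T/S/Z and 5 with T/5z. As a description, their median change was 2.43 on the log2 scale with T/S/Z and 1.13 with T/5z (1.89 and 1.13 over all 8), against -0.08 and -0.06 over all tested genes. When Nec-1s was added, 5 of 8 fell after T/S/Z, where 6.72% of all genes were called lower and 12.1% in either direction. After T/5z, 6 of 8 fell, where 4.52% of all genes were called lower and 7.16% in either direction. Of the 6 genes without Mmp9 and Adamts4, 5 fell after either stimulus. Nec-1s alone changed 0 of 8 in microglia, where 0% of genes were called and 892 genes had an unadjusted p under 0.05, and 0 of the 8 members had one. The 8 differences lay between -0.12 and 0.04.

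Urokinase and its receptor showed the largest response to T/S/Z in microglia. Plau, the plasminogen activator itself (ENSMUSG00000021822, chromosome 14, 20836660 to 20843385 on GRCm38), was at 3.38, 3.29, 3.59 and 3.80 in the DMSO libraries and at 6.90, 6.73, 7.47 and 8.06 after T/S/Z. With Nec-1s beside T/S/Z it was at 3.13, 3.27, 2.78 and 2.70. The lowest T/S/Z library lay far above the highest library of both other groups, and the T/S/Z/N libraries lay below their DMSO partners in all 4 pairs. T/S/Z raised Plau by 3.78 ± 0.13 (SE, n = 4 pairs, limma adjusted p = 3.28e-07), and Nec-1s lowered it by 4.32 ± 0.27 (limma adjusted p = 1.88e-05). Against DMSO, Plau under T/S/Z/N differed by -0.54 (limma adjusted p = 0.0297), which is under the fold-change minimum. It was called lower without replicate 1, at -0.64, and without replicate 2, at -0.72.

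T/5z acted on Plau far less. Its level was 4.42, 4.46, 3.85 and 3.71 after T/5z, higher than DMSO in 3 of 4 pairs, and 3.05, 2.90, 2.89 and 2.49 with T/5z/N. The T/5z libraries overlapped with DMSO, whereas each T/5z/N library lay below all DMSO and T/5z libraries. The rise of 0.60 ± 0.21 (limma adjusted p = 0.0374) was lost without replicate 1 (0.45, adjusted p = 0.125), replicate 2 (0.41, adjusted p = 0.129) or replicate 3 (0.71, adjusted p = 0.0568). It was also lost without the filter on low values, with 5 added before the log, and in limma without a trend in the variance. With an ordinary variance per gene the adjusted p of this rise was 0.195. Nec-1s lowered Plau by 1.28 ± 0.09 after T/5z (limma adjusted p = 1.95e-05), to 0.68 below DMSO (limma adjusted p = 0.0072). Without replicate 4, and likewise with 5 added before the log, this last difference was -0.47 and under the fold-change minimum, and with an ordinary variance per gene its adjusted p was 0.129. The effect of Nec-1s on Plau differed between the stimuli by 3.04 ± 0.37 in the test of the interaction (limma adjusted p = 5.7e-05), being the stronger under T/S/Z in 4 of 4 pairs.

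Plaur, the receptor that holds urokinase at the cell surface (ENSMUSG00000046223, chromosome 7, 24462484 to 24475968), followed a similar course. More of its rise was kept under T/S/Z/N, but not under T/5z/N. It was at 3.70, 3.64, 3.24 and 3.32 in DMSO, at 6.60, 6.72, 7.55 and 8.08 after T/S/Z, and at 4.41, 4.45, 5.10 and 4.97 under T/S/Z/N. These 3 groups did not overlap. T/S/Z raised Plaur by 3.76 ± 0.29, Nec-1s lowered it by 2.51 ± 0.14, and 1.26 ± 0.19 over DMSO remained (limma adjusted p = 1.71e-05, 9.34e-06 and 0.00131). With an ordinary variance per gene this last difference was not called (adjusted p = 0.0653). After T/5z it was at 4.36, 4.44, 4.14 and 4.11, and under T/5z/N at 3.00, 2.75, 2.34 and 2.11, so that all T/5z/N libraries lay below all DMSO libraries. The rise of 0.79 ± 0.06 with T/5z gave way to a level 0.93 ± 0.09 below DMSO (limma adjusted p = 3.06e-05 and 6.99e-05). The interaction of Nec-1s with the stimulus was 0.80 ± 0.41 for Plaur (limma adjusted p = 0.168), above the threshold, and was called with 5 added before the log, at 1.12 (adjusted p = 0.0315).

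The changes with T/S/Z varied between replicates for the genes that rose most. In pairs 1 to 4 the rise of Mmp13 was 1.99, 2.19, 3.27 and 4.22, that of Plau 3.52, 3.44, 3.88 and 4.26, and that of Plaur 2.90, 3.08, 4.32 and 4.76. Pairs 3 and 4 were above pairs 1 and 2 in each of the 3 genes. Each of the 3 rises remained called when any 1 pair was left out.

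Mmp13, an interstitial collagenase (ENSMUSG00000050578, chromosome 9, 7272514 to 7283331), rose with both stimuli and fell with Nec-1s under both. It was at 2.50, 2.54, 2.34 and 1.98 in DMSO, at 4.30, 4.28, 4.21 and 4.21 after T/5z, and at 4.48, 4.73, 5.61 and 6.21 after T/S/Z. With Nec-1s it was at 3.08, 2.73, 2.25 and 2.20 under T/5z/N and at 2.69, 2.74, 2.94 and 3.04 under T/S/Z/N. Each stimulated library lay above all libraries of the other groups, while the T/5z/N libraries overlapped with DMSO. It rose by 1.91 ± 0.09 after T/5z and by 2.92 ± 0.33 after T/S/Z, and the fall with Nec-1s was 1.69 ± 0.12 and 2.40 ± 0.20 (limma adjusted p of 3.83e-06, 0.000123, 2.27e-05 and 6.53e-05). T/S/Z exceeded T/5z by 1.01 ± 0.27 (limma adjusted p = 0.0242). That difference was no longer called without replicate 3 (0.88, adjusted p = 0.102) or replicate 4 (0.68, adjusted p = 0.0549), nor without the filter on low values.

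Mmp3, or stromelysin, has a wide range of matrix substrates and lies near Mmp13 (ENSMUSG00000043613, chromosome 9, 7445822 to 7455975). In microglia it was at 2.01, 1.92, 2.20 and 2.23 in DMSO, at 3.75, 3.73, 3.52 and 3.28 after T/5z, and at 2.98, 2.88, 3.25 and 3.71 after T/S/Z. Under T/5z/N it was at 2.71, 2.51, 2.38 and 2.17, and under T/S/Z/N at 2.02, 2.28, 2.09 and 2.26. All stimulated libraries lay above all others. Mmp3 rose by 1.48 ± 0.13 after T/5z and by 1.11 ± 0.10 after T/S/Z, and fell by 1.13 ± 0.05 and by 1.04 ± 0.12 with Nec-1s (limma adjusted p of 7.66e-05, 3.57e-05, 3.67e-06 and 0.000306). Its mean after T/S/Z differed from that after T/5z by -0.37 (limma adjusted p = 0.179). Without replicate 4 that difference was -0.63 and called (adjusted p = 0.0115).

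Several astrocyte markers in the microglial libraries moved with the same treatments as Mmp3. The summed level of the 9 astrocyte markers was 7.168 to 9.14 FPKM in DMSO, 12.14 to 22.21 after T/5z, 8.146 to 8.95 under T/5z/N, 13.72 to 19.94 after T/S/Z and 4.875 to 6.025 under T/S/Z/N. Of the 6 astrocyte markers that were tested, 4 rose with each stimulus (Gfap, Aqp4, Slc1a3 and Gja1) and 4 fell when Nec-1s was added to either. Aldh1l1 was at 2.45, 2.61 and 2.36 FPKM in DMSO, T/5z and T/S/Z, and Aldoc at 0.86, 1.16 and 1.27. Across the 24 microglial libraries, after the replicate means were taken out, the genes most like Mmp3 were Slc1a3 (Pearson r = 0.968), the glutamate transporter of astrocytes, Aqp4 (r = 0.962), their water channel, and Htra1 (r = 0.954). These libraries share their treatments, and r is a description. After T/S/Z the microglial level of Mmp3 was 3.645% of that in the astrocyte table, where the 9 astrocyte markers stood at 0.3054% to 2.856%. In DMSO it was 47.86%, against 0.1139% to 2.195% for the markers. The part of astrocyte RNA in the changes of microglial Mmp3 was not tested. In such bulk samples, more cells of a type and more RNA per cell cannot be told apart.

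**Figure D2:**
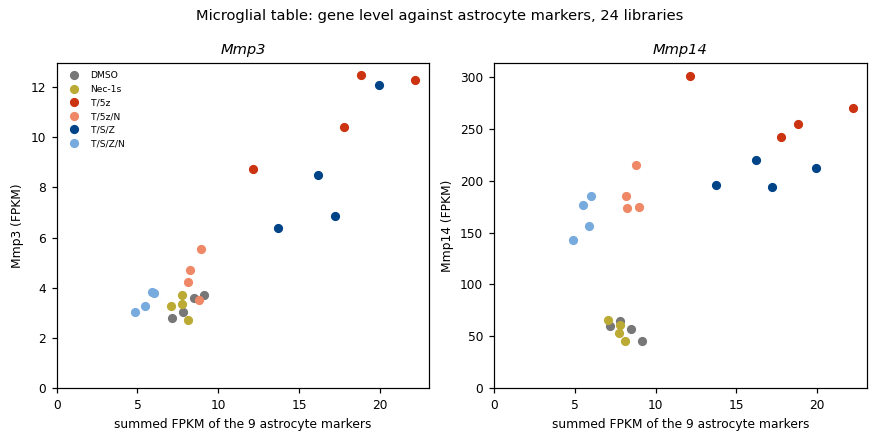
Mmp3 and Mmp14 against astrocyte markers in the 24 microglial libraries. The x axis is the summed FPKM of the 9 markers and the y axis the FPKM of the gene, each point is 1 library and colours give the treatment. Libraries with T/5z and T/S/Z lie to the right in both panels, and Mmp14 is high at low marker sums under T/S/Z/N and T/5z/N but not with Nec-1s alone.

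For the other members the marker sum moved less closely. The r with the mean of the 6 tested astrocyte markers was 0.936 for Mmp3, 0.816 for Mmp13, 0.782 for Adamts1, 0.746 for Adamts4, 0.712 for Plau, 0.56 for Mmp14, 0.521 for Plaur and 0.242 for Mmp9. Plau, Plaur, Mmp13 and Mmp14 were higher in the microglial than in the astrocyte table after T/S/Z, at 968.6%, 262.5%, 197.3% and 327.2% of the astrocyte level. Besides Mmp3, the other genes were lower there, with Mmp9 at 57.27%, Adamts4 at 30.95%, Adamts1 at 18.41% and Adamts9 at 3.679%. These percentages also depend on the separate normalization and on exon length. The deposited length in microglia and astrocytes was 1506 and 2617 bases for Plaur, 4184 and 5960 for Mmp14 and 8016 and 15048 for Adamts9. For Mmp3 and Mmp13 it was the same in both.

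Markers of other cells moved in the microglial table too. The sum of 6 fibroblast and mural cell markers was 5.172 to 6.856 FPKM in DMSO, 9.461 to 16.3 after T/5z, 5.647 to 6.829 under T/5z/N, 3.897 to 6.533 after T/S/Z and 2.715 to 4.215 under T/S/Z/N. All 3 tested ones rose with T/5z, and 1 fell when Nec-1s was added to it. Endothelial markers summed to 6.276 to 8.557 FPKM in DMSO, 3.707 to 5.168 after T/5z and 2.297 to 2.919 after T/S/Z. Of 3 tested markers of the oligodendrocyte lineage, 1 rose and 1 fell with T/5z, 2 (Olig1 and Cspg4) rose with T/S/Z and fell with Nec-1s, and Mbp rose by 0.62 when Nec-1s was added to T/S/Z. Of 4 neutrophil markers 3 were listed, and their sum varied widely between libraries of a group, from 0 to 17.25 FPKM in DMSO, 0 to 10.15 after T/5z, 0.06231 to 13.18 after T/S/Z and 0 to 9.274 under T/S/Z/N. The 2 tested ones, S100a8 and S100a9, were called in 0 comparisons. The part of these cells in the changes of the 9 genes was not tested.

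Mmp14, a membrane-anchored metalloproteinase that activates the precursor of Mmp2 (ENSMUSG00000000957, chromosome 14, 54431612 to 54445364), rose strongly and kept most of its rise with Nec-1s. It was at 6.04, 5.92, 5.85 and 5.53 in DMSO, at 8.00, 8.09, 7.92 and 8.24 after T/5z and at 7.60, 7.62, 7.79 and 7.73 after T/S/Z. Under T/5z/N it was still at 7.46, 7.45, 7.54 and 7.76, and under T/S/Z/N at 7.17, 7.30, 7.47 and 7.54. All 16 stimulated libraries lay above all DMSO libraries. It rose by 2.23 ± 0.12 after T/5z and by 1.85 ± 0.10 after T/S/Z, and 1.72 ± 0.12 and 1.54 ± 0.13 over DMSO with Nec-1s (limma adjusted p of 6.37e-06, 2.44e-06, 1.23e-05 and 5.72e-05). Adding Nec-1s gave differences of -0.51 and -0.32 (limma adjusted p = 9.61e-05 and 0.00149), both with an adjusted p under 0.05 and both under the fold-change minimum.

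Mmp9, a gelatinase that cuts denatured collagen and basement membrane (ENSMUSG00000017737, chromosome 2, 164940780 to 164955850 in the astrocyte table), was near the lower limit in microglia. It was at 0.74, 0.45, 0.74 and 0.43 in DMSO, at 1.19, 1.38, 1.32 and 1.15 after T/S/Z and at 1.17, 1.34, 1.22 and 1.48 under T/S/Z/N. All libraries of T/S/Z and T/S/Z/N lay above all DMSO libraries. The rise was 0.67 ± 0.11 with T/S/Z and 0.71 ± 0.13 with T/S/Z/N over DMSO (limma adjusted p = 0.000766 and 0.00265). With 5 added before the log, both changes fell under the fold-change minimum, and with an ordinary variance per gene the change under T/S/Z/N was not called (adjusted p = 0.0574). After T/5z Mmp9 was at 1.02, 0.95, 0.83 and 1.05, a difference of 0.37 (limma adjusted p = 0.0275) under that minimum.

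Adamts1, an aggrecan- and versican-cutting protease (ENSMUSG00000022893, chromosome 16, 85793827 to 85803113, minus strand), behaved like Plau in microglia. It was at 1.28, 1.31, 1.37 and 1.43 in DMSO, at 3.19, 3.00, 3.18 and 3.76 after T/S/Z and at 0.76, 0.73, 0.85 and 0.79 under T/S/Z/N. The 3 groups were apart, with T/S/Z/N lowest. T/S/Z raised it by 1.94 ± 0.11 and Nec-1s lowered it by 2.50 ± 0.12 (limma adjusted p = 3.54e-06 and 5.4e-06). The remaining -0.56 against DMSO (limma adjusted p = 0.000938) was just under the fold-change minimum, and was called with 0.5 added before the log, at -0.74. After T/5z it was at 2.10, 2.00, 1.63 and 1.21, higher than DMSO in 3 of 4 pairs by 0.39 ± 0.17 (limma adjusted p = 0.0837). This was called, at 0.59, without replicate 4. Nec-1s lowered Adamts1 by 0.77 ± 0.15 after T/5z (limma adjusted p = 0.00329). This call was lost with 5 added before the log, at -0.31, and with an ordinary variance per gene (adjusted p = 0.0848). The effects of Nec-1s under the 2 stimuli differed by 1.73 ± 0.27 (limma adjusted p = 0.000347).

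Adamts4, a protease of brevican and aggrecan (ENSMUSG00000006403, chromosome 1, 171250421 to 171260637), responded more to T/5z than to T/S/Z. It was at 0.69, 0.44, 0.42 and 0.15 in DMSO, at 1.99, 1.96, 1.99 and 2.12 after T/5z, at 0.63, 0.85, 0.96 and 0.98 under T/5z/N, at 1.46, 1.35, 1.23 and 1.46 after T/S/Z and at 0.73, 0.71, 1.12 and 1.23 under T/S/Z/N. All T/5z libraries lay above all T/S/Z libraries. It rose by 1.59 ± 0.12 with T/5z and by 0.95 ± 0.11 with T/S/Z, a difference between the stimuli of -0.64 ± 0.08 (limma adjusted p of 3.55e-05, 0.000176 and 0.000736). Nec-1s lowered it by 1.16 ± 0.08 after T/5z (limma adjusted p = 2.41e-05), while the difference after T/S/Z was -0.43 (limma adjusted p = 0.0168) and under the fold-change minimum. The interaction was -0.74 ± 0.14 (limma adjusted p = 0.00199). With 5 added before the log, 4 of these calls fell under the fold-change minimum, namely the rise with T/S/Z (0.30), the fall with Nec-1s after T/5z (-0.47), the difference between the stimuli (-0.29) and the interaction (-0.32). The difference between the stimuli was also lost with quantile normalization, at -0.56.

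Adamts9 (ENSMUSG00000030022, chromosome 6, 92772699 to 92943492, minus strand) was at -0.25, -0.24, 0.01 and 0.02 in microglia with DMSO and reached 1 on the log2 scale in 1 of 24 libraries. Values under 0 arose in the deposited adjustment of replicates 1 to 3. After T/5z it was at 0.86, 1.01, 0.29 and 0.24, and after T/S/Z at 0.91, 0.49, 0.48 and 0.47. All stimulated libraries without Nec-1s lay above DMSO, and the gene was left out of the microglial tests by the filter on low values. Its level after T/S/Z was 3.679% of that in the astrocyte table, and the part of astrocyte RNA in it was not tested. The deposited annotation marks Adamts9 as confounded in both tables, and Adamts4 in the astrocyte table, so their values may hold reads of an overlapping gene.

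Between the 2 stimuli, without Nec-1s, 5 of 8 genes differed in microglia, where 9.83% of all genes were called. Plau, Plaur, Mmp13 and Adamts1 were higher after T/S/Z, by 3.18, 2.98, 1.01 and 1.55, and Adamts4 was lower. The effect of Nec-1s differed between the stimuli for 3 of 8 genes (Plau, Adamts1 and Adamts4), where 6.47% of all genes were called. Without Mmp9 and Adamts4, these counts were 4 of 6 and 2 of 6.

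With Nec-1s beside the stimulus, fewer genes differed from DMSO. Under T/5z/N 3 of 8 did, Mmp14 higher and Plau and Plaur lower, where 12.8% of all genes were called. Under T/S/Z/N Mmp9, Mmp14 and Plaur were higher, 3 of 8, where 14.1% were called. That count was 6 without replicate 1 and 6 without replicate 2, with Mmp13, Plau and Adamts4 added, and Adamts4 was also called under T/5z/N without replicate 1, at 0.59. Without Mmp9 and Adamts4, which passed the filter through stimulated groups, 6 genes remain. Of these, 1 was higher and 2 were lower under T/5z/N, and 2 were higher and 0 lower under T/S/Z/N.

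**Figure D3:**
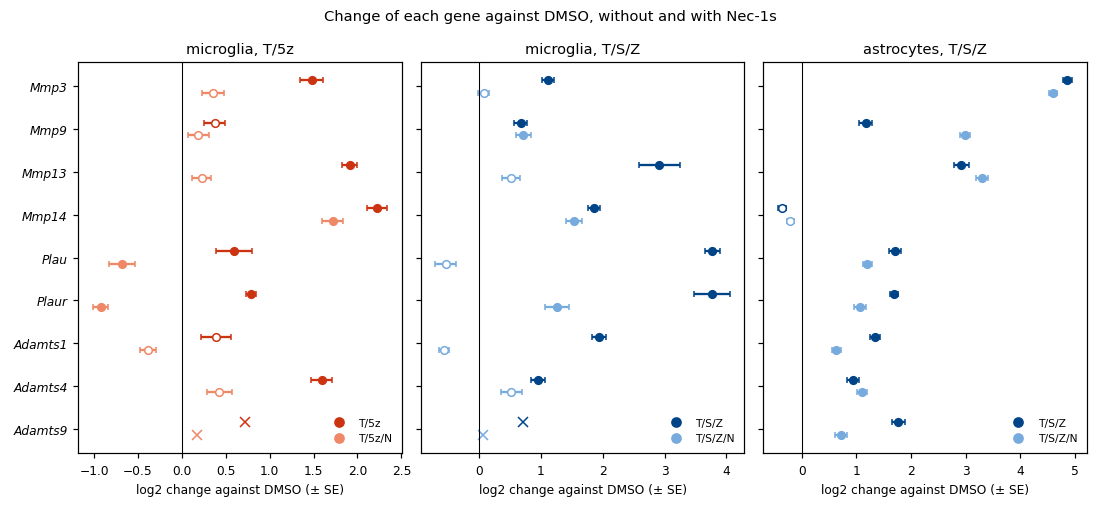
Change of each gene against DMSO with the stimulus alone (dark) and with Nec-1s added (light). The x axis is the log2 change with its SE, filled points were called, open points were not and crosses mark Adamts9 in microglia, which was not tested. Plau and Plaur lie below 0 with T/5z/N, Mmp14 stays near 1.5 to 1.7 in microglia with Nec-1s, and Mmp9 lies higher with Nec-1s than without it in astrocytes.

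Astrocytes answered T/S/Z with another profile, led by Mmp3. Of the 9 genes 8 rose, all but Mmp14, where 6.39% of all tested genes were called higher and 15.4% in either direction. The median change of the 9 was 1.68 against -0.11 over all genes, a shift to be set against each change in that comparison. Mmp9 lay under 1 in the DMSO libraries and passed the filter through the other groups. Without it 7 of 8 rose, with a median change of 1.69. With 5 added before the log, the rises of Mmp9 (0.43) and Adamts4 (0.49) were under the fold-change minimum, and with an ordinary variance per gene 2 of 9 genes were called with T/S/Z, 0 of 9 when Nec-1s was added to it and 2 of 9 (Mmp3 and Plau) under T/S/Z/N against DMSO. With Nec-1s added, Plaur, Adamts1 and Adamts9 fell and Mmp9 rose further, where 3.10% of all genes were called, 1.59% lower and 1.51% higher. All 8 genes that had risen were still called higher under T/S/Z/N than in DMSO, where 9.08% of all genes were called. With 5 added before the log, Adamts1 (0.54) and Adamts9 (0.42) fell under the fold-change minimum there. Nec-1s alone changed 0 of 9, where 0.0144% of genes were called and 790 had an unadjusted p under 0.05, 1 member among them (Adamts4). The differences lay between -0.04 and 0.32.

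**Figure D4:**
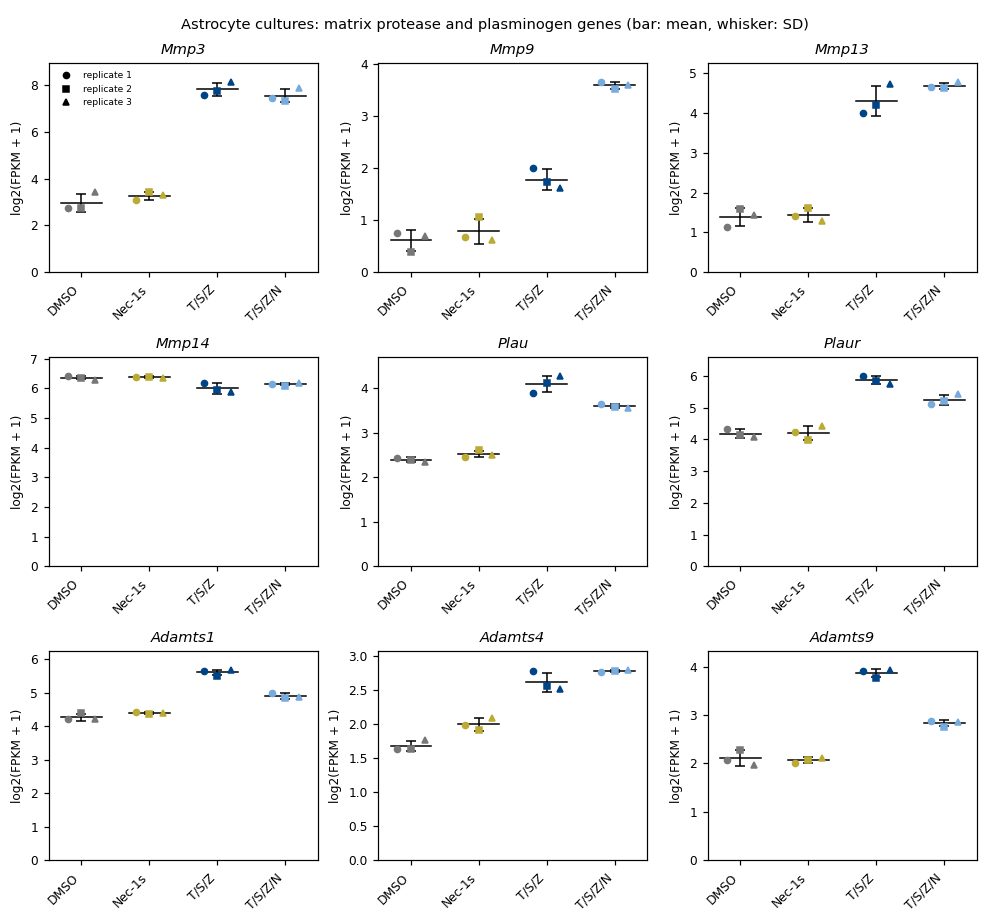
Levels of the 9 genes in the 12 astrocyte libraries. The y axis is log2(FPKM + 1), starting at 0 with a separate scale in each panel, each point is 1 library, the bar is the mean and the whisker the SD of 3 libraries. Mmp3 and Mmp13 stay high under T/S/Z/N, Adamts1, Adamts9 and Plaur lie between DMSO and T/S/Z, and Mmp9 is highest under T/S/Z/N.

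Mmp3 was at 2.76, 2.72 and 3.42 in astrocytes with DMSO, at 7.59, 7.75 and 8.13 after T/S/Z and at 7.46, 7.32 and 7.88 under T/S/Z/N. The stimulated groups overlapped with each other and lay far above DMSO. The rise of 4.86 ± 0.08 (limma adjusted p = 1.54e-07) took the mean from 6.81 to 225.5 FPKM, above every other of the 9 genes. With Nec-1s the difference from T/S/Z was -0.27 ± 0.09 (limma adjusted p = 0.106), and 4.59 ± 0.07 over DMSO was measured (limma adjusted p = 2.67e-06).

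Mmp13 was at 1.15, 1.59 and 1.44 in DMSO, at 4.00, 4.21 and 4.73 after T/S/Z and at 4.65, 4.64 and 4.78 under T/S/Z/N. It rose by 2.92 ± 0.14 (limma adjusted p = 1.03e-05), as much as in microglia on the log2 scale, a comparison that was not tested. Adding Nec-1s gave a mean difference of 0.38 ± 0.12 (limma adjusted p = 0.0959), with 0.64, 0.43 and 0.055 in the 3 pairs.

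Mmp9 was the only 1 of the 9 genes called higher when Nec-1s was added to a stimulus, in either table. It was at 0.76, 0.38 and 0.69 in DMSO, at 2.00, 1.73 and 1.62 after T/S/Z and at 3.66, 3.53 and 3.60 under T/S/Z/N. No group overlapped with another. T/S/Z raised it by 1.17 ± 0.12 (limma adjusted p = 0.000452) and Nec-1s raised it by a further 1.81 ± 0.10 (limma adjusted p = 0.000208), for a mean of 0.528, 2.44 and 11.1 FPKM in DMSO, T/S/Z and T/S/Z/N. Nec-1s alone gave 0.18 ± 0.17 (limma adjusted p = 0.914). The lowest of these values rest on an estimated 24 to 54 counted units per library in DMSO, against 834 to 892 under T/S/Z/N.

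Markers of other cells also moved in the astrocyte table. The summed level of 10 microglial markers was 83.3 to 88.53 FPKM in DMSO, 49.47 to 52.78 after T/S/Z and 73.68 to 77.68 under T/S/Z/N, and 6 of 9 tested ones fell with T/S/Z and 3 rose with Nec-1s. The sum of 6 fibroblast and mural cell markers was 379.9 to 420.7, 85.39 to 96.37 and 327 to 338.4 FPKM, and 5 of 6 fell and 5 rose again. Endothelial markers summed to 15.99 to 17.4, 3.292 to 4.023 and 9.54 to 10.81 FPKM in the same groups, with 2 of 2 lower with T/S/Z and 1 higher with Nec-1s. Markers of the oligodendrocyte lineage summed to 100.2 to 117.4, 60.27 to 86.92 and 67.9 to 71.86 FPKM, and 2 of 7 fell with T/S/Z. None of the 4 neutrophil markers was listed in the astrocyte table. The part of these cells in the changes of the 9 genes was not tested.

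Mmp14 was at 6.41, 6.36 and 6.29 in DMSO, at 6.18, 5.93 and 5.86 after T/S/Z and at 6.15, 6.09 and 6.19 under T/S/Z/N. It thus lay below DMSO in 3 of 3 pairs, by -0.36 ± 0.08 (limma adjusted p = 0.00924), under the fold-change minimum and against a median of -0.11 over all genes. In microglia the same stimulus raised it.

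Plau rose from 2.44, 2.40 and 2.34 to 3.90, 4.11 and 4.27 with T/S/Z, and was at 3.64, 3.59 and 3.55 under T/S/Z/N. The 3 groups did not overlap. The rise was 1.70 ± 0.11 (limma adjusted p = 4.82e-05), and the difference of -0.50 ± 0.11 with Nec-1s (limma adjusted p = 0.0401) was under the fold-change minimum. Without replicate 1 it was -0.62 and called. Plaur was at 4.34, 4.15 and 4.06 in DMSO, at 5.99, 5.84 and 5.75 after T/S/Z and at 5.11, 5.22 and 5.42 under T/S/Z/N. It rose by 1.68 ± 0.07 (limma adjusted p = 6.04e-06) and fell by 0.62 ± 0.11 with Nec-1s (limma adjusted p = 0.0255). This fall was lost without replicate 1 (-0.48, adjusted p = 0.0838) and without replicate 2 (-0.61, adjusted p = 0.133). With 5 added before the log it was -0.57 and under the fold-change minimum.

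Adamts9 and Adamts1 were the genes that Nec-1s lowered most in astrocytes. Adamts9 was at 2.07, 2.29 and 1.96 in DMSO, at 3.91, 3.77 and 3.92 after T/S/Z and at 2.87, 2.76 and 2.86 under T/S/Z/N. Adamts1 was at 4.20, 4.38 and 4.21 in DMSO, at 5.63, 5.50 and 5.67 after T/S/Z and at 4.99, 4.83 and 4.87 under T/S/Z/N. In both genes the T/S/Z/N libraries lay between the other groups without overlap. Adamts9 rose by 1.76 ± 0.12 and fell by 1.04 ± 0.09, and Adamts1 rose by 1.34 ± 0.09 and fell by 0.70 ± 0.08 (limma adjusted p of 4.78e-05, 0.00117, 5.53e-05 and 0.00483). Over the 12 libraries the r with the mean of the 9 tested microglial markers was -0.993 for Adamts9, -0.989 for Adamts1, -0.942 for Plau, -0.94 for Plaur, -0.861 for Mmp3, -0.79 for Mmp13, -0.723 for Adamts4, -0.41 for Mmp9 and 0.914 for Mmp14, a description over libraries that share 4 treatments. With the mean of the 9 astrocyte markers the r was -0.871, -0.867, -0.946, -0.962, -0.959, -0.927, -0.902, -0.751 and 0.863 in the same order. Adamts1 was still 0.63 above DMSO under T/S/Z/N, a call lost without replicate 1, at 0.56.

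Adamts4 was at 1.64, 1.64 and 1.77 in DMSO, at 2.78, 2.56 and 2.52 after T/S/Z and at 2.77, 2.78 and 2.80 under T/S/Z/N. The stimulated groups overlapped and lay above DMSO. The rise was 0.94 ± 0.11 (limma adjusted p = 0.000857), and adding Nec-1s gave 0.16 (limma adjusted p = 0.322).

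A gene was classed as RIPK1-kinase-dependent when it was called with the stimulus and called in the opposite direction when Nec-1s was added. In microglia with T/5z these were Mmp3, Mmp13, Plau, Plaur and Adamts4, 5 of the 6 called, where the share over all called genes was 25.0%. With T/S/Z they were Mmp3, Mmp13, Plau, Plaur and Adamts1, 5 of 8, where the share was 31.3%. In astrocytes they were Plaur, Adamts1 and Adamts9, 3 of 8, where the share was 16.5%. Some calls behind this class were lost in other settings given above, such as Plau with T/5z and Plaur in astrocytes. A change was classed as retained when it was called in the same direction against DMSO with Nec-1s present. That held for Mmp14 with T/5z (1 of 6, where the share of all called genes was 47.6%), for Mmp9, Mmp14 and Plaur with T/S/Z in microglia (3 of 8, share 38.9%) and for all 8 in astrocytes (share 49.2%). Adamts4 and Mmp9 in microglia and Mmp9 in astrocytes passed the filter on low values through groups other than DMSO. Without them, 4 of 5 genes were dependent and 1 of 5 was retained in microglia with T/5z, 5 of 6 and 2 of 6 after T/S/Z, and 3 of 7 and 7 of 7 in astrocytes. The 2 comparisons behind the dependent class share the stimulated libraries, and those behind the retained class share the DMSO libraries.

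Other genes of the system were counted from a list of 59 in 7 roles, of which 21 were tested in microglia and 46 in astrocytes. In microglia 6 rose and 1 fell with T/5z, where 24.4% of all tested genes were called, and 10 rose and 2 fell with T/S/Z, where 29.6% were called. With Nec-1s 8 fell after T/5z and 11 fell after T/S/Z, where 4.52% and 6.72% of all tested genes were called lower. In astrocytes 9 of the 46 rose and 9 fell with T/S/Z, where 15.4% were called, and with Nec-1s 2 rose and 6 fell, where 3.10% were called.

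Among the other metalloproteinases, Mmp10 (a second stromelysin) rose in microglia by 1.14 (T/5z) and 1.28 (T/S/Z), fell by 1.10 and 0.93 with Nec-1s, and rose by 2.52 in astrocytes. Mmp12, the elastase of macrophages, rose with T/S/Z by 1.53 in microglia and by 3.04 in astrocytes, and fell by 1.5 and by 0.75 with Nec-1s. The gelatinase Mmp2 rose by 0.67 with T/5z in microglia but fell by 1.5 in astrocytes with T/S/Z and rose by 1.53 with Nec-1s there. The median change of the tested fibroblast and mural cell markers was 0.74, -1.88 and 1.46 in the same comparisons. The part of such cells in the changes of Mmp2 was not tested. Mmp19 fell by 1.00 with T/5z and by 1.15 with T/S/Z in microglia, and differed by -0.39 in astrocytes (limma adjusted p = 0.00961, under the fold-change minimum).

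Of the other ADAMTS genes, 2 of 12 rose and 4 fell in astrocytes with T/S/Z, where 15.4% of all tested genes were called. The 1 tested in microglia, Adamts10, fell by 0.73 with T/S/Z (limma adjusted p = 9.03e-05), and its difference with T/5z was -0.55, under the fold-change minimum. Adamts5 and Adamts14 rose by 1.54 and 1.48 and fell by 0.64 and 0.80 with Nec-1s. Adamts15 fell by 2.00 with T/S/Z and did not pass with Nec-1s (0.34, limma adjusted p = 0.0738). Adamts12 fell by 0.87 and rose by 0.71. None of these 4 genes was tested in microglia.

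Of the inhibitors, 1 of 4 tested in microglia rose after T/5z and 2 of 4 after T/S/Z, and 2 and 3 fell when Nec-1s was added. The shares of all tested genes called were 24.4% and 29.6% with the stimuli and 7.16% and 12.1% when Nec-1s was added. In astrocytes 1 of 6 rose and 2 fell with T/S/Z, where 15.4% were called, and 0 of 6 were called when Nec-1s was added, where 3.10% were. Timp1, a secreted inhibitor of metalloproteinases, rose by 0.61 (T/5z) and 0.60 (T/S/Z) in microglia, fell by 0.87 and 0.73 with Nec-1s, and rose by 1.47 in astrocytes, where adding Nec-1s gave -0.05 (limma adjusted p = 0.718). Timp3, which binds to the matrix and inhibits ADAMTS enzymes too, fell by 1.07 in astrocytes and by 0.73 and 1.05 in microglia when Nec-1s was added to T/5z and T/S/Z. Timp4 fell by 0.63 in astrocytes. A2m, a protease trap, rose by 0.72 in microglia with T/S/Z and fell by 0.83 with Nec-1s.

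Serpinb2, an inhibitor of urokinase, rose by 1.03 (T/5z) and 1.61 (T/S/Z) in microglia, fell by 1.62 and 1.13 when Nec-1s was added, and rose by 2.26 in astrocytes with T/S/Z. Plat, the tissue-type plasminogen activator, rose by 0.74 and 0.81 in microglia and fell by 0.67 and 0.99, while in astrocytes it differed by 0.43 (limma adjusted p = 0.00672, under the fold-change minimum). S100a10, part of a plasminogen receptor, rose by 0.89 with T/S/Z in microglia. Cd44, a hyaluronan receptor that docks Mmp9, rose by 0.91 with T/S/Z in microglia and by 1.57 in astrocytes. The proteoglycan Ncan rose by 0.66 in microglia with T/S/Z and fell by 0.96 with Nec-1s. In the microglial libraries, the 6 tested astrocyte markers had a median change of 0.83 under T/5z and 0.90 under T/S/Z. Their median was -0.78 for T/5z/N against T/5z and -0.97 for T/S/Z/N against T/S/Z. Whether astrocyte RNA had a part in the microglial changes of Plat, Ncan and the other listed genes was not tested.

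The genes whose pattern was most like each member, by Pearson r over the libraries of a table with replicate means removed, differed between the tables. In microglia, over 24 libraries, Plau was closest to Plk3 (0.986), Tiparp (0.986) and Egr3 (0.974), and Adamts1 to Egr3 (0.971) and Tiparp (0.961). Among the members themselves, the highest r was 0.979, between Plau and Adamts1, and the lowest 0.284, between Plau and Mmp14. Plaur was closest to Pik3cb (0.979), Mmp14 to Src (0.996), Mmp13 to Atp6v1e1 (0.975), Adamts4 to Rrs1 (0.959) and Mmp9 to Esd (0.934).

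In astrocytes, over 12 libraries, Mmp3 was closest to Casp4 (0.999), Tgtp2 (0.998) and Gbp4 (0.998), and Mmp9 to Saa3 (0.991), Ctsc (0.989) and Fstl1 (0.989). Mmp13 was closest to Birc2 (0.999), Plau to Tslp (0.996), Plaur to Mvp (0.995), Adamts1 to Nfkbiz (0.992), Adamts4 to Susd6 (0.984) and Adamts9 to Gap43 (0.993). Adamts1 and Adamts9 had an r of 0.992 with each other and of 0.473 and 0.442 with Mmp9. Libraries of 1 treatment share it, so high r values arise for many genes and are given as a description.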

How the data were processed

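Polyadenylated RNA of 24 microglial and 12 astrocyte libraries was sequenced, the latter with a strand-specific protocol. The authors used OmicSoft Array Studio for alignment and quantification. The deposited values are log2(FPKM + 1), scaled to a common 75th percentile. In microglia, replicates 1 to 3 had been shifted so that every gene has the same 6-treatment mean as in replicate 4 (largest difference 6.67e-05), which the methods do not describe. This leaves values below 0, and it takes differences that all treatments of a replicate share out of the spread within groups. The replicate block takes out any shift that the treatments of a replicate share. The deposited exon length is another column, listed per gene and not a measurement. Exon lengths of some genes differ between tables.

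Tests used limma 3.58.1 in R 4.3.3 (lmFit, eBayes with a trend), 2-sided, with the compared groups only. Genes needed a log2 value of at least 1 in 4 microglial or 3 astrocyte libraries. The script was tested on simulated data. The replicate block follows the study's paired test. Same-numbered libraries correlated at -0.144 to 0.411 in astrocytes, so numbers alone do not show pairing, and the adjustment makes this check void in microglia. Within groups, r between libraries was 0.993 to 0.997 and 0.983 to 0.995, with no duplicates. Whole reads could not be recovered (82.8% of low astrocyte values fell within 0.1 of a whole number), so no count test was run. Estimated units may be reads or fragments. The study describes its replicates as biological, and the labels do not tie single libraries to animals, so p-values measure the spread between libraries. All 9 genes, the list of 59 with up to 4 genes named per role, the 3 most similar genes and the marker lists were chosen with earlier results of these data known. Some genes that these rules would name are not reported here.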

Additional observations from a re-analysis of the deposited data

Results flagged for a closer look

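Adamts9 in microglia after T/S/Z had 1 library, replicate 1, apart from the other 3. Its gap to the nearest of them was 0.947 of the range of the group, above the 95% critical value of Dixon's test for 4 samples. Of 54 groups checked, about 1 in 20 would be marked by chance.

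The effect of Nec-1s differed between the stimuli in microglia for 3 genes in a test of the interaction. The effect after T/5z minus that after T/S/Z was 3.04 for Plau, 1.73 for Adamts1 and -0.74 for Adamts4 on the log2 scale.

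Between microglia and astrocytes, 5 changes went in opposite directions in every replicate pair, a difference that was not tested because the tables were normalized apart. With T/S/Z against DMSO, Mmp14 changed by -0.36 in astrocytes and by 1.85 in microglia. With Nec-1s added to T/S/Z, Mmp13 changed by 0.38 in astrocytes and by -2.40 in microglia. With T/S/Z/N against DMSO, the astrocyte values were -0.21 for Mmp14, 1.2 for Plau and 0.63 for Adamts1, and the microglial values were 1.54, -0.54 and -0.56. Several of these values did not pass the threshold (Mmp13 and Mmp14 in astrocytes, Plau and Adamts1 in microglia).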

How the results depend on the processing

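Of the recomputed changes of single genes, 1412 kept their direction and their side of the threshold, 50 were no longer called, 16 became called and 18 turned direction. Without the replicate block, all 108 changes stayed on the same side of the threshold, with 6 of 8 called for T/5z and 8 of 8 for T/S/Z in microglia and 8 of 9 in astrocytes. In microglia this says little, since the deposited values already had equal replicate means. With a minimum mean log2 value of 3, which leaves 4 members tested in microglia and 5 in astrocytes, the counts were 4 (T/S/Z), 3 (T/5z/N against T/5z), 3 (T/S/Z/N against T/S/Z), 3 (T/S/Z against T/5z) and 1 (interaction) in microglia, and 4 (T/S/Z), 2 (T/S/Z/N against T/S/Z) and 4 (T/S/Z/N against DMSO) in astrocytes. With an ordinary variance per gene and the same adjustment of p, the counts were 3 (T/S/Z against T/5z) and 1 (T/S/Z/N against DMSO) in microglia, and 2 (T/S/Z), 0 (T/S/Z/N against T/S/Z) and 2 (T/S/Z/N against DMSO) in astrocytes, where 3 pairs leave few degrees of freedom. For T/S/Z/N against DMSO in microglia, 5 genes were called with 0.5 added (4 higher and Adamts1 lower) or with quantile normalization, 7 by adjusted p alone, and 3 to 6 with 1 replicate left out. For T/5z/N against DMSO, 1 gene was called with a fold-change minimum of 2 and 5 by adjusted p alone. In astrocytes, 2 were called for T/S/Z/N against T/S/Z with a minimum of 2. The cause was not tested where none is given.

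The changes that turned direction were never called. With library median centring and quantile normalization, Nec-1s against DMSO gave 0.0064 and 0.0013 for Mmp3 in microglia, and T/S/Z/N against T/S/Z gave -0.032 and -0.014 for Mmp9. With 1 replicate left out in turn, Nec-1s against DMSO in microglia ranged over -0.11 to 0.11 for Mmp3, -0.030 to 0.013 for Mmp14, -0.066 to 0.14 for Plau, -0.013 to 0.094 for Plaur and -0.078 to 0.071 for Adamts4. In astrocytes it ranged over -0.069 to 0.14 for Mmp13, -0.077 to 0.31 for Mmp9, -0.14 to 0.045 for Adamts9 and -0.14 to 0.13 for Plaur. In microglia, T/S/Z/N against T/S/Z ranged over -0.055 to 0.090 for Mmp9, T/S/Z/N against DMSO over -0.024 to 0.13 for Mmp3, and the interaction over -0.22 to 0.092 for Mmp3.

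Few estimated units lay behind Mmp9, Adamts4 and Adamts9 in replicate 4 of microglia with DMSO, at 23, 11 and 3. The same held for Mmp9 in astrocytes with DMSO, at 24 to 54. Cell type and the provider named in the labels cannot be told apart.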
